A study of Mus musculus with 24 samples.

Results

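N6-methyladenosine (m6A) is a methyl mark on adenosines inside RNA. It is added in the nucleus by a writer complex, removed by demethylases called erasers, and bound by reader proteins that act on the splicing, export and decay of the marked RNA. In the brain the pathway is best known for its part in neuronal development, synaptic function and memory. The genes described here are 10 members of this pathway, namely the writer genes Mettl3, Mettl14, Wtap, Zc3h13, Rbm15 and Rbm15b, the reader genes Ythdc1 and Ythdf2, and the eraser genes Fto and Alkbh5. They were chosen by name, with earlier results of these data known, out of 52636 gene rows in the count tables. Each was measured by RNA-seq in all 24 libraries. The assay counted the transcripts of these genes. It did not measure m6A itself.

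The tissue was the nucleus accumbens (NAc), a ventral striatal region of reward and motivation, punched on both sides of the brain of C57BL/6 mice (C57BL/6J in the study's methods) aged 50 days, with 1 animal per library. The labels do not tie animals to litters, so animals of a group may be littermates. Control (Con) animals were reared normally, and MSUS animals underwent maternal separation combined with unpredictable maternal stress from day 1 to day 14 after birth. Each sex had 6 Con and 6 MSUS animals, which gave 4 groups, and the labels name no transgene or mutation. Punches hold every cell type of the region, so fewer cells of a type and less RNA per cell cannot be told apart. The p-values set a difference against the spread between these animals, taken as independent although some may be littermates.

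Total counts were between 39923666 and 70575745 per library. Xist was at 1035 to 1587 CPM (counts scaled to library size) in the libraries labelled female and at 0.390 CPM or less in those labelled male, and the Y-linked gene Ddx3y was at 0 in every female library and at 52.8 to 62.2 CPM in the males. All 9 markers of striatal projection neurons were above 0 in every library, but their summed level varied. It ranged from 1575 to 4534 CPM in Con females and from 2988 to 4111 CPM in MSUS females. In males it ranged from 2513 to 4340 CPM for Con and from 1922 to 4169 CPM for MSUS animals. The 3 choroid plexus markers together never exceeded 0.434 CPM. The summed level of 6 markers of cortical excitatory neurons, a cell type of neighbouring regions, ranged from 193 to 1560 CPM in Con females and from 63.4 to 684 CPM in MSUS females. The medians were 540 CPM in Con females and 139 CPM in MSUS females. The share of read pairs that were assigned to no gene, called the no-gene share below, was 31.0 to 34.8% in Con females and 36.3 to 43.9% in MSUS females, so that the female groups did not overlap. It was 34.7 to 40.6% in Con males and 32.2 to 44.7% in MSUS males.

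All members are autosomal. Gene positions follow GENCODE M21 (GRCm38). Rbm15b lies on the minus strand of chr9:106880918-106887428 as a single exon of 6511 bases, Rbm15 on the minus strand of chr3:107325421-107333673 with 2 exon blocks, and Ythdc1 on the plus strand of chr5:86804221-86836659 with 16 exon blocks. RefSeq promoter windows, from 250 bases before to 50 bases after a transcription start on GRCm38.p6, were held for 9 of the 10 members, and Mettl14 was the one without an entry. Those of Rbm15, Rbm15b and Ythdc1 are described because these are the members that differed between Con and MSUS females. For Rbm15 and Rbm15b the GENCODE gene begins farther upstream than the RefSeq start, so their windows lie inside the annotated gene and only stretches of 30 bases around a motif are shown. Motifs were chosen after the sequences had been read and were searched on both strands. They were the GC box (GGGCGG), the CCAAT box (CCAAT) and the core of the YY1 motif (ATGGCG). Capitals mark a motif in either orientation. The first sequence is the part of the Ythdc1 window that lies before both annotated starts (chr5:86804016-86804220, plus strand).
Ythdc1 upstream: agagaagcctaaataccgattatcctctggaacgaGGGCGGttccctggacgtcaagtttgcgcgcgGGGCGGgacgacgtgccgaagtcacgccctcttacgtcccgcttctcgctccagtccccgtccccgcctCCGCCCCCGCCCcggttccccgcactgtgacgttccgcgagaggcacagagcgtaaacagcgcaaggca
Ythdc1 after the start (chr5:86804268-86804297, plus strand): gCCGCCCggcgtCGCCATctgtgtctctct
Rbm15b after the start (chr9:106887041-106887070, minus strand): cttttgtccaagATGGCGgcgccgggggcg
Rbm15 before the start, distal (chr3:107333375-107333404, minus strand): cgtggccacaaaCCAATgaaagggaagaga
Rbm15 before the start, proximal (chr3:107333300-107333329, minus strand): cagagtttttgtCCAATcaacgcttctagg
Rbm15 after the start (chr3:107333253-107333282, minus strand): atgaagtgcgagGGGCGGagctacagcctg

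The windows differed in composition. G and C made up 75.3% of the Rbm15b window, 64.0% of the Ythdc1 window and 54.3% of the Rbm15 window, against a median of 52.7% over the 32851 windows of the RefSeq table. Ythdc1 had 5 GC boxes, Rbm15b had 3 and Rbm15 had 1, and 35.7% of all windows held at least 1. These traits were not particular to the 3 genes. In the windows of the other members, G and C made up 52.0% (Mettl3) to 80.3% (a Wtap window). The Wtap windows had 3 to 5 GC boxes, Ythdf2 and Alkbh5 had 2, each Zc3h13 window had 1, and Mettl3 and Fto had 0. Rbm15b and Ythdc1 each had a YY1 core within 20 bases after the start, at position 18 in the sense orientation in Rbm15b and at position 15 in the opposite orientation in Ythdc1. This core was also present upstream of Mettl3, and 8.93% of all windows held it. Rbm15 held 2 CCAAT boxes, at 103 and 28 bases before the start, and neither Rbm15b nor Ythdc1 held one, against 37.4% of all windows. The Alkbh5 window and some of the Wtap windows also held this box. These matches describe letters in the windows and are not measurements of binding.

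All 10 genes were detected in every library, with raw counts between 952 for Mettl14 and 13027 for Fto, and all passed the filter on low counts. To compare genes with each other, counts were divided by exonic length and given as RPKM (reads per kilobase of exon, scaled to library size). The length merges all annotated exons of a gene, so annotated exons unused in this tissue would lower its value. Which exons were used was not tested. The regulatory writer subunit Zc3h13 had the highest median over 24 libraries at 16.5 RPKM, followed by both erasers, Alkbh5 at 14.5 and Fto at 13.8 RPKM. Rbm15b was at 11.1 RPKM, Ythdf2 at 9.22, Wtap at 6.96, Rbm15 at 6.61, Mettl3 at 5.48, Ythdc1 at 5.04 and Mettl14 at 3.02 RPKM. Of the neighbours in this order, 3 pairs did not overlap in any library, namely Fto above Rbm15b, Ythdf2 above Wtap and Ythdc1 above Mettl14. The ranges of the other neighbours overlapped. Mettl3 and Mettl14, which form the catalytic core as a pair, thus ranged from 4.74 to 5.96 RPKM and from 2.85 to 3.23 RPKM.

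**Figure D1:**
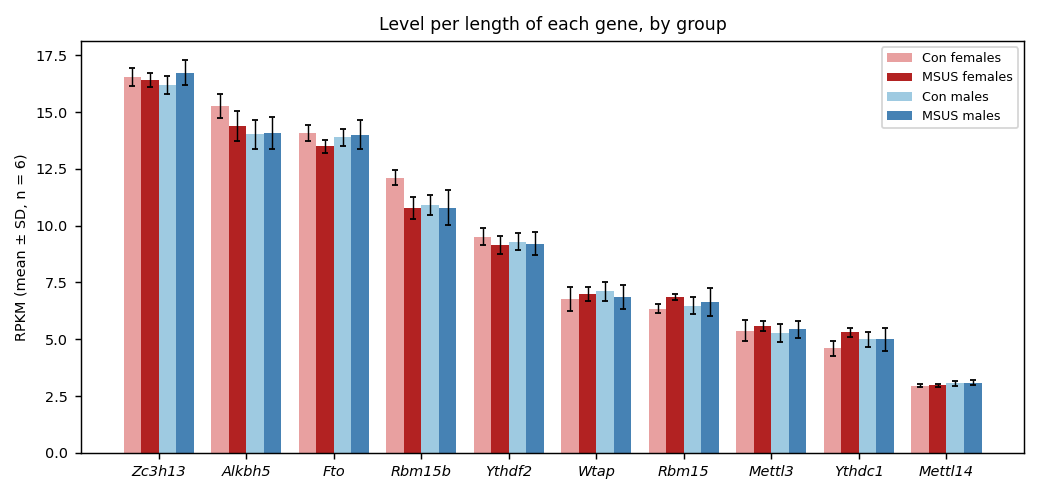
Level per length (RPKM, mean ± SD, n = 6 animals) of the 10 genes in the 4 groups, ordered by the median over all 24 libraries. Zc3h13 is the highest at a median of 16.5 RPKM and Mettl14 the lowest at 3.02 RPKM, and within each gene the 4 bars are close together.

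The levels varied little between animals. The highest library was 1.10 times the lowest for Zc3h13 and 1.13 times for Mettl14, and 1.38 times for Ythdc1, the widest of the 10. The coefficient of variation over the 24 libraries was 2.67% for Zc3h13 and 8.53% for Ythdc1.

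The comparison of MSUS with Con females asked whether early-life stress altered these genes in females. It used edgeR's quasi-likelihood test over all genes, with a p adjusted over all of them (p_adj) and a threshold of 0.10. Of the 10 members, 3 passed, with Ythdc1 and Rbm15 higher and Rbm15b lower in MSUS females. In the same comparison 5156 of 20571 genes passed, or 25.1%, with 13.1% higher and 11.9% lower, so the members' 3 of 10 lay near this background. The median log2 fold change was 0.0047 over the 10 members and -0.0027 over all genes tested.

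Rbm15b encodes an RNA-binding subunit that brings the writer complex to RNA, Xist RNA among its targets. Con females had 4022 to 4318 normalized counts with a median of 4166, whereas MSUS females had 3484 to 3942 with a median of 3731. Each MSUS female was below each Con female. Rbm15b was the one member of 10 whose female groups did not overlap, which held for 7.21% of all genes tested. It fell by 0.17 on the log2 scale (SE 0.034, p_adj = 0.0092).

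Rbm15, its paralog with the same role in the complex, lay in the opposite direction. Con females had 2402 to 2605 normalized counts (median 2490), MSUS females had 2579 to 2782 (median 2687), so that 1 MSUS female, at 2579, fell below the highest Con female. The log2 fold change was 0.11 (SE 0.029, p_adj = 0.022). Within a library, the log2 ratio of Rbm15 to Rbm15b was between -0.83 and -0.67 in Con females and between -0.55 and -0.32 in MSUS females. In males the ratio was between -0.73 and -0.42 for Con and between -0.75 and -0.20 for MSUS animals, and the groups overlapped. This ratio was chosen after the values had been seen and was not tested.

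Wtap encodes the subunit that ties the catalytic core to nuclear speckles, and Zc3h13 encodes a large scaffold that keeps the complex in the nucleus. Neither passed the threshold. Wtap had medians of 2205 and 2324 normalized counts in Con and MSUS females, with a log2 fold change of 0.050 (SE 0.050, p_adj = 0.51). Zc3h13 had medians of 5482 and 5457, with a log2 fold change of -0.0067 (SE 0.029, p_adj = 0.89).

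The catalytic core did not pass either. Mettl3, the methyltransferase itself, had medians of 1480 normalized counts in Con and 1508 in MSUS females (log2 fold change 0.059, SE 0.052, p_adj = 0.45). Mettl14, which holds the RNA substrate, had medians of 1160 and 1152 (log2 fold change 0.016, SE 0.030, p_adj = 0.74). The 95% interval of the Mettl14 difference ran from -0.043 to 0.075 on the log2 scale and that of Mettl3 from -0.043 to 0.16. Mettl3 shares 933 exonic bases with Tox4 on the opposite strand. Reads of the other strand made up 17.6 to 25.2% of those at this gene, and strand-specific counts were used.

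Ythdc1 encodes the nuclear reader, which acts on splicing and export of marked RNA. Con females had 2951 to 3669 normalized counts (median 3295), and MSUS females had 3611 to 4019 (median 3803). One Con female, at 3669, was above the lowest MSUS female. With a log2 fold change of 0.21 (SE 0.047, p_adj = 0.014), Ythdc1 had the largest difference of the 10 members. It shares 631 exonic bases with the long noncoding gene Gm43055 on the same strand, and pairs that fall on both are left out of the counts.

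Ythdf2, the cytoplasmic reader that leads marked RNA to decay, did not pass. It ranged over 2205 to 2428 normalized counts in Con and 2118 to 2382 in MSUS females (log2 fold change -0.055, SE 0.039, p_adj = 0.35). For the erasers, Fto and Alkbh5, the fitted values were below 0 and the ranges of the groups overlapped. Fto, the demethylase first known from genetic studies of body mass, ranged over 9444 to 9941 normalized counts in Con and 8960 to 9475 in MSUS females (log2 fold change -0.058, SE 0.028, p_adj = 0.17). Alkbh5 had 4685 to 5164 and 4252 to 4862 (log2 fold change -0.084, SE 0.036, p_adj = 0.12).

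**Figure D2:**
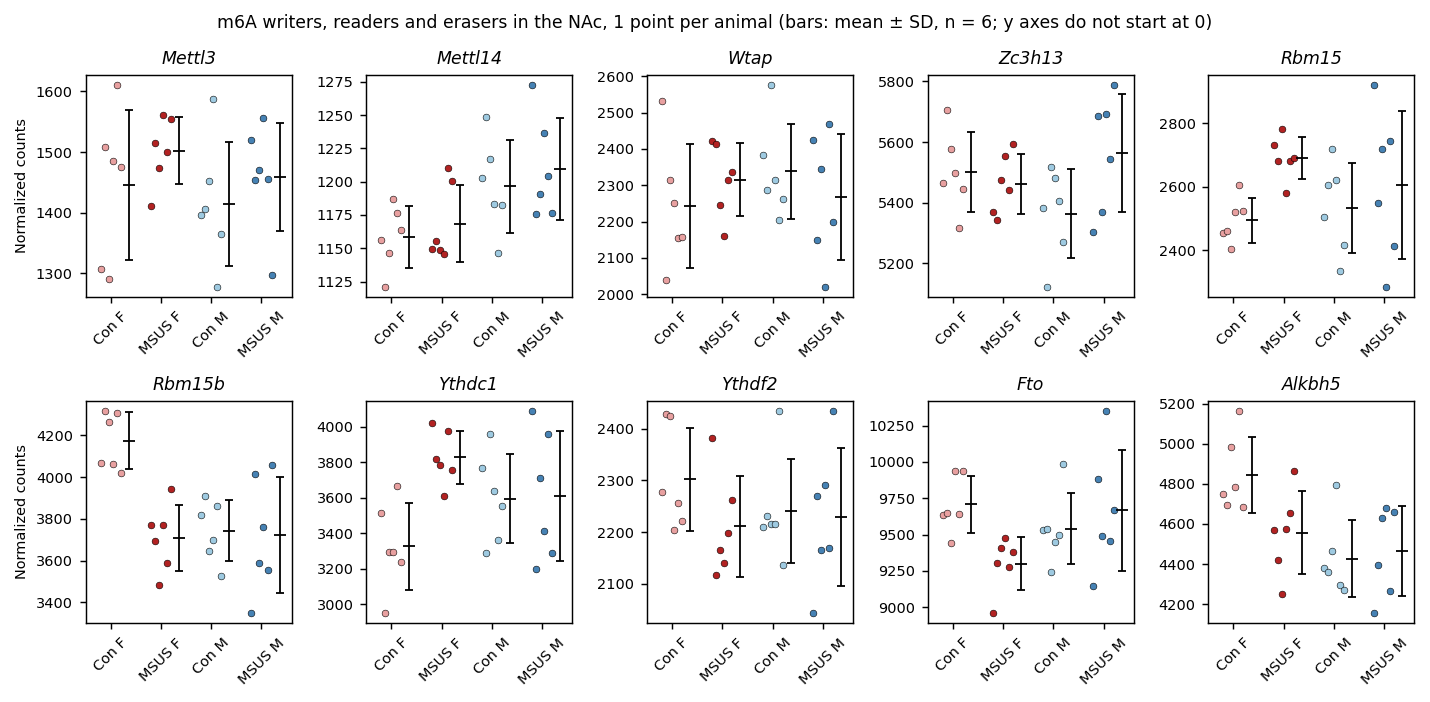
Normalized counts of the 10 genes in each animal of the 4 groups, with mean ± SD (n = 6) beside the points; y axes do not start at 0. Rbm15b in MSUS females (3484 to 3942) lies wholly below Con females (4022 to 4318), Ythdc1 and Rbm15 lie higher in MSUS females with an overlap of the groups, and the male groups overlap for every gene.

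The 3 differences held when any 1 of the 12 females was left out, with log2 fold changes of -0.18 to -0.15 for Rbm15b, 0.10 to 0.14 for Rbm15 and 0.18 to 0.24 for Ythdc1. They had the same direction in the libraries numbered 1 to 12 and in those numbered 13 to 24, with 3 animals per group in each. The difference of the means was -0.22 and -0.12 for Rbm15b, 0.14 and 0.081 for Rbm15, and 0.17 and 0.24 for Ythdc1. DESeq2 called 4 members, the same 3 and Fto (p_adj = 0.053).

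The no-gene share moved with the groups in females, as given above. With this share as a covariate, the log2 fold changes in females were -0.10 for Rbm15b (SE 0.073, p_adj = 0.73), 0.060 for Rbm15 (SE 0.061, p_adj = 0.80) and 0.29 for Ythdc1 (SE 0.10, p_adj = 0.73), and 0 of 10 members and 0 genes in all passed. Because the female groups did not overlap in this share, the share and MSUS cannot be told apart in females. With the spliced share (splice events per mapped pair) as a covariate, the log2 fold changes were -0.062 for Rbm15b (p_adj = 0.91), 0.036 for Rbm15 (p_adj = 0.94) and 0.14 for Ythdc1 (p_adj = 0.90). With offsets for GC content and length, 3359 genes passed but 0 members did, and the log2 fold changes were -0.064 for Rbm15b (p_adj = 0.17), 0.081 for Rbm15 (p_adj = 0.11) and -0.038 for Ythdc1 (p_adj = 0.59). With the cortical marker score as a covariate 2 members passed, Rbm15b at -0.13 and Ythdc1 at 0.20, and Rbm15 did not (0.10, p_adj = 0.13). Rbm15 also missed the threshold in a fit of all 24 animals (0.11, p_adj = 0.13). All 5 oligodendrocyte markers had fitted values below 0 in MSUS females (-0.30 to -0.099) and 3 passed. All 4 astrocyte markers were below 0 (-0.41 to -0.011) and 1 passed. All 6 cortical markers (-2.2 to -0.26) and all 3 endothelial markers (-0.13 to -0.018) were below 0 as well, and none passed. Markers of microglia (-0.080 to 0.15) and striatal projection neurons (-0.023 to 0.20) lay on both sides of 0. The 2 of oligodendrocyte precursors were above 0 (0.012 to 0.020), and none of these passed. Beyond the fit with the cortical marker score, the part of these cells in the members' differences was not tested.

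**Figure D3:**
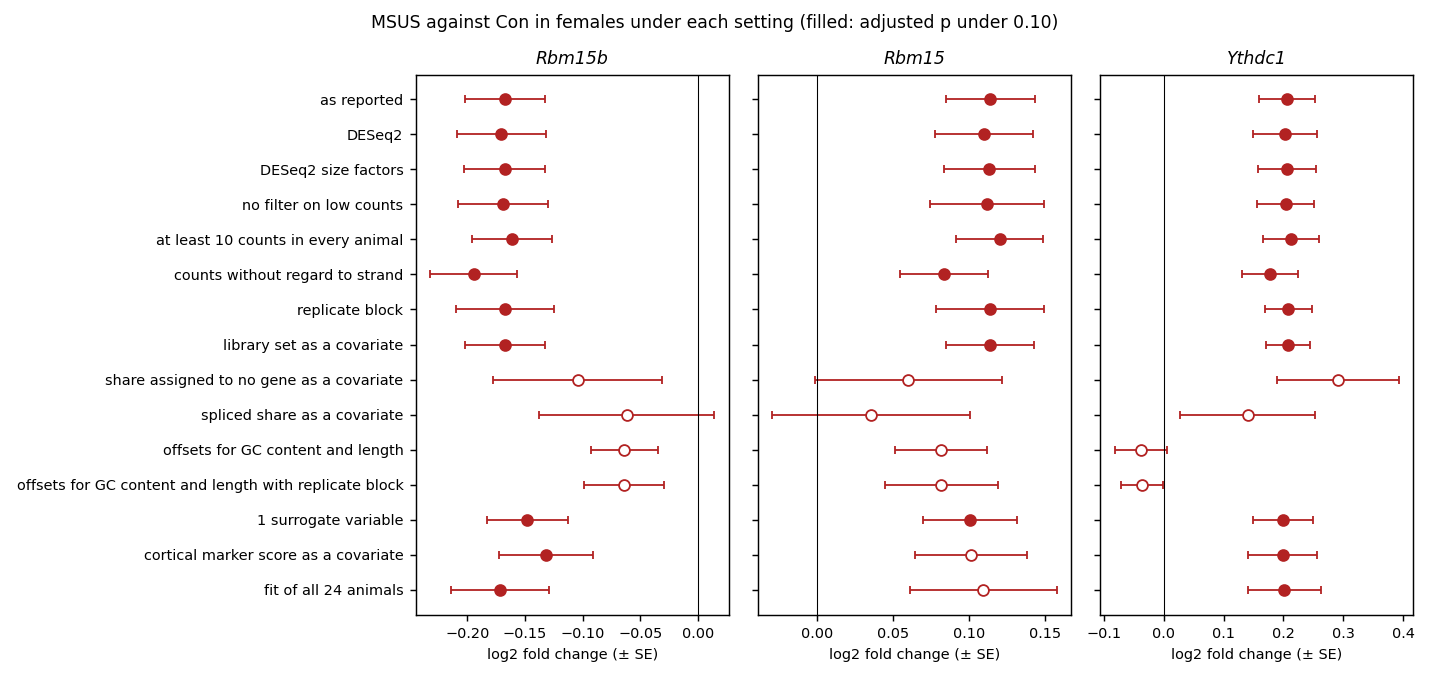
Log2 fold change of Rbm15b, Rbm15 and Ythdc1 between MSUS and Con females (± SE) in the fit reported and under each alternative, with filled points for an adjusted p under 0.10. All 3 are open with the no-gene share or the spliced share as a covariate and with offsets for GC content and length, where Ythdc1 falls to -0.038. Rbm15 is open as well with the cortical marker score and in the fit of all 24 animals.

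Con and MSUS males overlapped in the no-gene share. In a fit of the 12 males with group in the model, chosen after the data had been seen, the change per doubling of the share was tested. Of all genes 32.5% passed, 15.1% higher and 17.4% lower with a higher share. Among the members 5 of 10 passed, with Ythdc1 (log2 change per doubling 0.85, SE 0.14, p_adj = 0.0018), Rbm15 (0.64, SE 0.17, p_adj = 0.016) and Wtap (0.53, SE 0.16, p_adj = 0.035) higher. Rbm15b fell by 0.52 per doubling (SE 0.13, p_adj = 0.014) and Ythdf2 fell by 0.47 (SE 0.12, p_adj = 0.015). In MSUS against Con females, Wtap and Ythdf2 did not pass. Without MSUS male 1, the library with the highest share (44.7%), Rbm15b had p_adj = 0.12 and Ythdf2 had p_adj = 0.11, and 3 members passed. The share ran with library number within MSUS males, at 37.8 to 44.7% in libraries 10 to 12 and 32.2 to 35.0% in libraries 22 to 24. With library set as a covariate 5 members passed, Mettl3 in place of Wtap (p_adj = 0.20), and the changes per doubling were 0.71 for Ythdc1, 0.63 for Rbm15 and -0.52 for Rbm15b. With library set within each group as a covariate 1426 genes passed and 0 members did, with 0.73 for Ythdc1 (SE 0.22, p_adj = 0.10), 0.45 for Rbm15 (SE 0.27, p_adj = 0.34) and -0.37 for Rbm15b (SE 0.21, p_adj = 0.32). The part of the share in the female differences was not tested apart from MSUS.

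**Figure D4:**
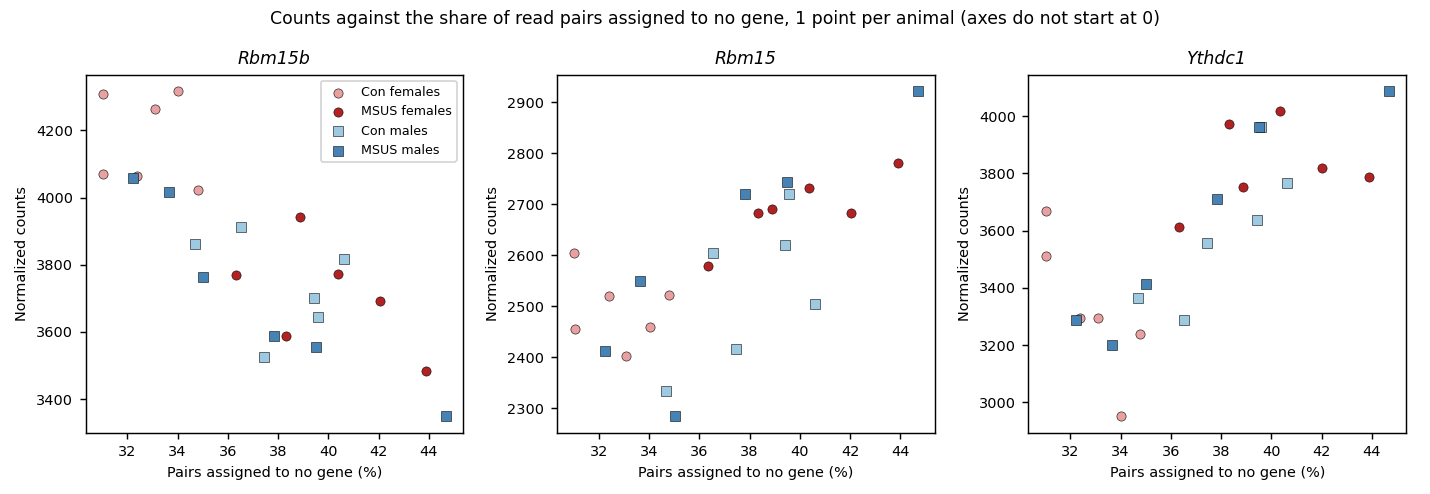
Normalized counts of Rbm15b, Rbm15 and Ythdc1 against the percentage of read pairs assigned to no gene, with 1 point per animal, circles for females and squares for males; axes do not start at 0. Con females sit at 31.0 to 34.8% and MSUS females at 36.3 to 43.9%, and males of both groups spread over 32.2 to 44.7%, with Rbm15b lower and Ythdc1 and Rbm15 higher toward the right.

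In males, MSUS and Con did not differ at the threshold for any member. By edgeR 0 of 20691 genes passed (0%), 191 had an unadjusted p under 0.05, and DESeq2 also called 0. Of the members 0 of 10 had an unadjusted p under 0.05. Rbm15b had 3526 to 3912 normalized counts in Con males and 3349 to 4059 in MSUS males, with a log2 fold change of -0.0097 (SE 0.050) and a 95% interval of -0.11 to 0.088. Ythdc1 had 3287 to 3961 and 3199 to 4089, with 0.0043 (SE 0.069) and an interval of -0.13 to 0.14. Rbm15 had 2333 to 2720 and 2284 to 2923, with 0.039 (SE 0.061) and an interval of -0.081 to 0.16. Between libraries numbered 1 to 12 and 13 to 24 the sign of the male difference turned for each of the 3 genes, from -0.11 to 0.088 for Rbm15b, from 0.15 to -0.077 for Rbm15 and from 0.085 to -0.082 for Ythdc1. The no-gene share of the males turned as well. In libraries 1 to 12 it was 34.7 to 40.6% in Con and 37.8 to 44.7% in MSUS males. In libraries 13 to 24 it was 36.5 to 39.4% in Con and 32.2 to 35.0% in MSUS males. The part of the share in the turned signs was not tested. The MSUS males spread more widely than the MSUS females for these genes, with SDs of 278 against 160 normalized counts for Rbm15b and 367 against 150 for Ythdc1.

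**Figure D5:**
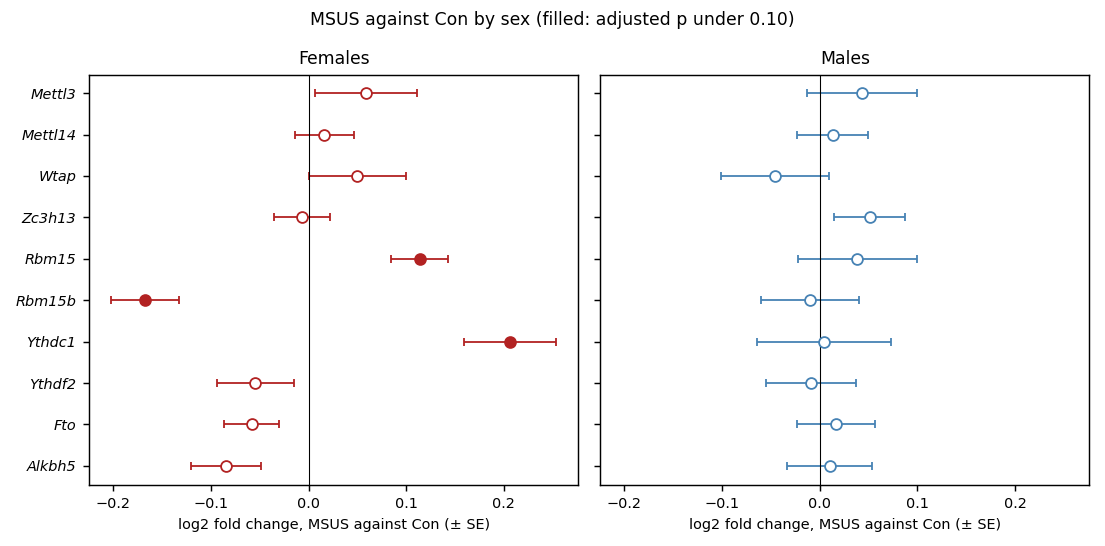
Log2 fold change of MSUS against Con (± SE) for each of the 10 genes in females and in males, 6 animals per group, with filled points for an adjusted p under 0.10. Rbm15 and Ythdc1 are filled above 0 and Rbm15b is filled below 0 in females, and no gene is filled in males.

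Whether the response differed between the sexes was tested as the interaction of group and sex in all 24 animals. No gene of 21500 passed by edgeR (0%), although 4031 had an unadjusted p under 0.05 and DESeq2 called 408, with 0 members among them. The interaction was -0.16 for Rbm15b (SE 0.060, unadjusted p = 0.012 in the edgeR fit, p_adj = 0.21) and 0.20 for Ythdc1 (SE 0.086, unadjusted p = 0.032 in the edgeR fit, p_adj = 0.24). For Rbm15 it was 0.070 (SE 0.068, p_adj = 0.57). Without MSUS male 1, 3031 genes passed, and so did Rbm15b (-0.19, p_adj = 0.055) and Ythdc1 (0.24, p_adj = 0.071).

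Females were compared with males within Con and within MSUS animals, so these comparisons use the same libraries as those above. In Con animals 544 of 20641 genes passed (2.64%), and 1 member did. This number of genes was not stable, with 20 to 1395 when 1 animal was left out, 1474 by DESeq2 and 12 with the replicate block. Leaving out Con male 5 raised it, and leaving out Con female 1, 2, 4 or 5 or Con male 1, 3, 4 or 6 lowered it most. Rbm15b was higher in Con females (4022 to 4318 normalized counts) than in Con males (3526 to 3912), with a log2 fold change of 0.16 (SE 0.037, p_adj = 0.074). It missed the threshold without Con female 1, 2, 4 or 5 or Con male 1, 3, 4 or 6 (p_adj 0.12 to 0.17 in these 8 fits). With offsets for GC content and length it was at 0.069 (p_adj = 0.35) and with the no-gene share as a covariate at 0.12 (p_adj = 1.00). It also missed with the replicate block (p_adj = 0.20), the cortical marker score (p_adj = 0.13) and a fit of all 24 animals (p_adj = 0.13). Alkbh5 had 0.14 (SE 0.039, p_adj = 0.11) and passed by DESeq2 (p_adj = 0.044). The no-gene share was 31.0 to 34.8% in Con females and 34.7 to 40.6% in Con males.

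In MSUS animals 28 of 20714 genes passed (0.135%), 1511 had an unadjusted p under 0.05 and DESeq2 called 159. Of the members 0 passed by either tool, and 0 had an unadjusted p under 0.05. Rbm15b had 3484 to 3942 normalized counts in MSUS females and 3349 to 4059 in MSUS males, with a log2 fold change of -0.0095 (SE 0.050) and a 95% interval of -0.11 to 0.088. The 4 groups thus placed Con females highest for Rbm15b, with medians of 4166 in Con and 3731 in MSUS females, and of 3758 and 3676 in the males. For Ythdc1 the median of Con females was lowest, with medians of 3295, 3803, 3596 and 3562 in the same order. The ranges of Con females (2951 to 3669) and Con males (3287 to 3961) overlapped. Ythdc1 did not pass between them (log2 fold change -0.10, SE 0.058, p_adj = 0.37 by edgeR). The medians of the no-gene share were 32.7, 39.6, 38.4 and 36.4% in this order, and its part in these patterns was not tested.

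A further 22 genes of the pathway were listed, covering other writer subunits, methyltransferases of other RNA adenosines, other readers and partners of the readers. Igf2bp1 (0 to 5 counts per library) and Igf2bp3 (1 to 13) were below the filter, which left 20. In females 5 of the 20 passed, all higher in MSUS, against 25.1% of all genes (13.1% higher), and the median log2 fold change over the 20 was 0.053. They were Mettl16, the methyltransferase of U6 small nuclear RNA (0.10, SE 0.036, p_adj = 0.074), Zcchc4, a methyltransferase of ribosomal RNA (0.15, SE 0.042, p_adj = 0.027), and the YTHDC1 partners Srsf3 (0.18, SE 0.050, p_adj = 0.030), Srsf10 (0.16, SE 0.046, p_adj = 0.037) and Cpsf6 (0.21, SE 0.052, p_adj = 0.019). The first pair of these partners are splicing factors and Cpsf6 acts in the cleavage of RNA ends. With either the no-gene or the spliced share as a covariate none of the 5 passed (p_adj of at least 0.73). With the offsets for GC content and length Zcchc4 passed at 0.13 (p_adj = 0.072), and the others were at 0.015 for Cpsf6 (p_adj = 0.80), 0.077 for Srsf3 (p_adj = 0.14), 0.070 for Srsf10 (p_adj = 0.25) and 0.066 for Mettl16 (p_adj = 0.22). Mettl16 also missed the threshold in 7 of the 12 fits that left out 1 animal. The remaining writer subunits Virma (0.043, p_adj = 0.49) and Cbll1 (0.063, p_adj = 0.52) did not pass. By edgeR 0 of the 20 passed in males, in the interaction and in both comparisons of the sexes. DESeq2 called 2 of them between Con females and Con males, Zcchc4 and Ythdf1, and 0 in the other 3 comparisons. In the fit to the no-gene share in males 6 of the 20 passed, all higher with a higher share, against 32.5% of all genes (15.1% higher), among them Cpsf6 (0.93 per doubling), Srsf3 (0.84) and Srsf10 (0.70). Mettl16 (0.28 per doubling, p_adj = 0.41) and Zcchc4 (0.34, p_adj = 0.12) did not.

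Rbm15b had the smallest p of the members in females, and the 5 genes of all those tested whose log2 CPM was most like its own over the 24 libraries were B4galnt1 (Pearson r 0.93, Spearman rho 0.95), Gas2l1 (0.93 and 0.93), Abhd17a (0.93 and 0.93), Pfn1 (0.92 and 0.89) and Fscn1 (0.92 and 0.92). B4galnt1 encodes an enzyme of ganglioside synthesis, and Pfn1 and Fscn1 encode actin-binding proteins. Among the members, the most alike pair was Rbm15 and Ythdc1 (r = 0.73 over 24 libraries), and the most opposed was Rbm15b and Ythdc1 (r = -0.74). The points of each of these relations share the libraries and their no-gene share, and are given as a description.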

How the data were processed

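The NAc of 24 mice was profiled by RNA-seq. Per the labels and the study's methods, libraries were stranded and depleted of rRNA, and 100-base pairs were aligned with STAR 2.6.1b to mm10 and GENCODE M15. The authors deposited raw counts of each gene, as an unstranded column and a column per strand, and the sense column was used. Of 52636 gene identifiers, 52489 matched GENCODE M21. Genes, lists and members were chosen with earlier results of these data known. All 10 members were named; other pathway genes were named where they passed, and genes most like the member with the smallest p in females by Pearson r.

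Genes were filtered with filterByExpr at a minimum count of 10, scaled by TMM and tested with edgeR 4.0.16 (robust quasi-likelihood F test, Benjamini-Hochberg adjustment over all genes, threshold 0.10). R 4.3.3 and Python 3.11.15 were used, and the alternatives took DESeq2 1.42.0, limma 3.58.1 and sva 3.50.0. Normalized counts are counts divided by DESeq2 size factors. The 95% intervals are normal intervals from the SE and are narrower than the edgeR test would give. That of Fto in females, -0.11 to -0.0028, left out 0 although its unadjusted p by edgeR was 0.059. Fits were run on simulated counts with the same spread for every gene and no effect of the no-gene share. That check therefore does not bear on the share. Alternatives were DESeq2, its size factors, other filters, counts without regard to strand, a replicate block, covariates (library set, no-gene share, spliced share from the study's library table, cortical marker score), 1 surrogate variable, offsets for GC content with length, a joint fit of all animals, a threshold of 0.05 and each animal left out. The fit to the no-gene share in males, and its alternatives with library set, were added after the data were seen. Estrous stage was not used, since the labels give it to males and leave it out for some females. The study's own model of females included estrous status, and the study balanced its female groups for high- and low-estrogenic animals. Any effect of stage therefore stays in the spread within the female groups here. The sources give different daily durations of separation. The lowest chi-square per gene over 60 pairs of libraries within groups was 6.34, so no library was a copy of another of its group. Pairs across groups were not compared. The sequences are from RefSeq.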

Additional observations from a re-analysis of the deposited data

Results flagged for a closer look

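In 2 of 40 sets of 6 animals (10 genes in 4 groups), 1 animal stood apart from the others by Dixon's criterion, which chance passes in about 1 of 20 sets. Ythdf2 in Con male 5 was at 2433 normalized counts, against 2136 to 2232 in the other 5 Con males (ratio of gap to range 0.678). Alkbh5 in Con male 4 was at 4794 normalized counts, against 4269 to 4465 in the other 5 (ratio 0.628). By edgeR neither gene passed in MSUS against Con males, in Con females against Con males or in the interaction. Ythdf2 did pass in the fit of the males to the no-gene share (-0.47 per doubling, p_adj = 0.015). Con male 5, with a share of 34.7%, is part of that fit. The Ythdf2 change per doubling was -0.51 to -0.41 when 1 male was left out.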

How the results depend on the processing

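In females, 3 members passed. The count was 5 with counts taken without regard to strand, and 0 with the no-gene share or the spliced share as a covariate and with the offsets for GC content and length, with or without the replicate block. It was 3 to 4 when 1 animal was left out. The replicate numbers did not pair the animals (correlations of same-numbered animals between -0.37 and 0.40); with the replicate block 3 members passed in females and the number of all genes called went from 5156 to 3800. In Con animals, 1 member passed between the sexes. The count was 2 with DESeq2, with counts taken without regard to strand and with 1 surrogate variable. It was 0 without a filter, with the replicate block, either share as a covariate, the offsets (with or without the block), the cortical marker score, a fit of all 24 animals or a threshold of 0.05, and 0 to 1 when 1 animal was left out. In the interaction 0 members passed, and 0 to 2 when 1 animal was left out. In the fit to the no-gene share 5 passed, 0 with library set within each group as a covariate, and 3 to 6 when 1 animal was left out. In males and between the sexes in MSUS animals 0 members passed under every alternative run.

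Signs of log2 fold changes turned as follows. In females, Ythdc1 was at -0.038 with the offsets and -0.037 with offsets and block; Mettl14 was at -0.079 and -0.078, Wtap at -0.097 and -0.096, and Zc3h13 at 0.038 and 0.038. With the spliced share Wtap was at -0.058, Zc3h13 at 0.026, Alkbh5 at 0.029 and Zcchc4 at -0.00081, and with the no-gene share Alkbh5 was at 0.044. With the cortical marker score Mettl3 was at -0.0010, Mettl14 at -0.0091 and Ythdf2 at 0.0038; without regard to strand Mettl14 was at -0.0093, and with 1 surrogate variable Zc3h13 was at 0.0026. In males Ythdc1 was at -0.00053 with library set. In Con animals Rbm15 was at 0.041 with the no-gene share, 0.065 with the spliced share, 0.0060 without regard to strand, 0.013 with 1 surrogate variable and 0.0050 with the cortical marker score, and Ythdc1 at 0.054 with the spliced share and 0.067 and 0.065 with the offsets. In MSUS animals Rbm15 was at -0.018 and -0.024 with the no-gene and the spliced share, and Rbm15b at 0.053 and 0.056 with these, 0.018 and 0.018 with the offsets, 0.042 with 1 surrogate variable and 0.028 with the cortical marker score. The interaction was -0.097 and -0.10 for Rbm15 with the no-gene and the spliced share, and for Ythdc1 -0.024 with the spliced share and -0.053 and -0.051 with the offsets. When 1 animal was left out, Zc3h13 in females ran from -0.022 to 0.0058, Rbm15b in males from -0.036 to 0.021, Ythdc1 in males from -0.032 to 0.037, and Rbm15b between the sexes in MSUS animals from -0.030 to 0.017. The causes were not tested.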
